A study of Mus musculus with 2 samples.

Results

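The Bcl2 family decides at the mitochondrion whether a cell under stress lives or dies, and 10 of its genes were followed here: the pro-survival genes Bcl2, Bcl2l1, Mcl1 and Bcl2a1b, the pro-death effectors Bax and Bak1, and the pro-death BH3-only genes Bid, Bad, Bcl2l11 and Bbc3. The members were set by name, as those of the 10 with a probe that the platform annotation names. This gave 9 members among 10208 genes with a named probe, and Bax was not analysed here. RNA came from mouse haematopoietic progenitors that lack E2A, the gene (Tcf3) whose products include the transcription factor E47. The cells had been infected with E47ER or bHLHER and, 48 h later, given 4-hydroxytamoxifen for 6 h, a ligand that switches on proteins fused to the oestrogen receptor's hormone-binding part. E2A deficiency, infection and the drug were thus common to both groups. The label of the bHLHER sample names its cells only as E2A-deficient haematopoietic cells, while the design text covers both infections. What bHLHER holds beyond its name, the animals' age and the culture of the cells are not stated in the labels or the design text. Each group was 1 CodeLink array of 1 colour, so no difference below has a replicate check, an error across cultures or a p-value. No array of uninfected or untreated cells was used, so a gene higher with E47ER may have risen in that group or fallen in the other.

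In healthy cells the pro-survival proteins hold the effectors Bax and Bak in check. BH3-only proteins carry death signals: they bind the pro-survival proteins, and some also activate Bax and Bak directly. Active Bax and Bak open the outer mitochondrial membrane, which releases cytochrome c and starts the caspases. Early lymphoid cells are known to depend on this balance, since interleukin-7 sustains Bcl2 and Mcl1 and the BH3-only protein Bim (Bcl2l11) removes cells that fail selection.

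The deposited intensities had medians of 0.957 on the E47ER array and 0.953 on the bHLHER array. Each array's median served as its floor, and 5534 genes above it on both arrays were counted as measured. Their log2 ratio of E47ER over bHLHER had a median of -0.05, and the middle 95% of them ran from -0.79 to 0.96. Of these ratios, 44.2% were above 0 and 55.8% below. A 2-fold difference was the size at which a gene was called higher or lower, which is no test. Checked against markers of the labelled cells, Ptprc (CD45), the common surface antigen of blood cells, read 36.2 with E47ER and 18.8 with bHLHER, and the progenitor transcription factor genes Tal1 (22.4 and 22.5) and Meis1 (20.5 and 28.5) were above the floor. Of 10 stem and progenitor markers with a probe, 8 were above the floor on both arrays, while Gata2 and Procr were above it on neither. The arrays also differed in markers: 13 of 17 measured pan-leukocyte genes were higher with E47ER (median log2 ratio 0.46, summed intensity 443 against 299), and 11 of 12 measured stromal genes were lower (median -0.80, summed intensity 157 against 256). Summed intensities here and below cover every gene of a list with a probe, dim ones included. The part of this difference in the members' ratios was not tested. In such bulk RNA, fewer cells of a type and less RNA per cell cannot be told apart. Lymphoid markers differed within their lists. The B lineage factor gene Pax5 (0.940 and 0.735) and the T cell receptor complex gene Cd3e (0.0532 and 0.0935) lay below the floor on both arrays. Il7r (25.2 and 6.05), the interleukin-7 receptor gene, Ly6d (15.5 and 0.188), Lat (4.84 and 0.977), Cd7 (10.3 and 0.730) and Ptcra (2.05 and 0.254) were higher with E47ER, and Rag2 was lower (5.95 and 12.4). Of 12 early B genes with a probe, 3 were measured on both arrays, with 2 above 0 and 1 below. Of 9 T genes with a probe, 2 were measured on both, with 1 above 0 and 1 below. The summed intensity was 63.8 against 32.4 for the early B list and 21.6 against 5.35 for the T list. These differences came largely from Il7r and Ly6d in the early B list and from Cd7 and Lat in the T list, so neither sum describes its whole list.

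Promoter windows of 300 bases from RefSeq (build GRCm38.p6), written 5′ to 3′ on the strand of the gene, are shown for the member with the largest ratio, for its near-identical copy, for the member with the lowest ratio and for the one whose window held CAGCTG. Capitals mark CANNTG, the E-box letters that E proteins such as E47 are known to bind, searched on both strands. The windows lie at chr9:89199023-89199322 on the plus strand for Bcl2a1b, chr9:88956670-88956969 on the plus strand for Bcl2a1a, chr1:106714241-106714540 on the minus strand for Bcl2, and chr2:128125788-128126087 on the plus strand for Bcl2l11.
Bcl2a1b: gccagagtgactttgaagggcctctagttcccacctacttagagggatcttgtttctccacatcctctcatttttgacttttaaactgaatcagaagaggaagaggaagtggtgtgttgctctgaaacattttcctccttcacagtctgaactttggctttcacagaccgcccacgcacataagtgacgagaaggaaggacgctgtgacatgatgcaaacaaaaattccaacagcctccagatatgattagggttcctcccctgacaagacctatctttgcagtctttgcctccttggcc
Bcl2a1a: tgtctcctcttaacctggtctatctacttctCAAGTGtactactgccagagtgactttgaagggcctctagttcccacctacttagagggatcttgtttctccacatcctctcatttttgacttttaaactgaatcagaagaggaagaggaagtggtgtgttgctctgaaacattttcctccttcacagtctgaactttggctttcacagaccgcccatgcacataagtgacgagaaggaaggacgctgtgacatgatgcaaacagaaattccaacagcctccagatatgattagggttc
Bcl2: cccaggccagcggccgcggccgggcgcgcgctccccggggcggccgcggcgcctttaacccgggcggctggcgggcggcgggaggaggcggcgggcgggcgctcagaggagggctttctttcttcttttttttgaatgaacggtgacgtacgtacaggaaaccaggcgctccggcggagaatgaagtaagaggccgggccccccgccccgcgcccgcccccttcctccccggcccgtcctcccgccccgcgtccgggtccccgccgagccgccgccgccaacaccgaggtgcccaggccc
Bcl2l11: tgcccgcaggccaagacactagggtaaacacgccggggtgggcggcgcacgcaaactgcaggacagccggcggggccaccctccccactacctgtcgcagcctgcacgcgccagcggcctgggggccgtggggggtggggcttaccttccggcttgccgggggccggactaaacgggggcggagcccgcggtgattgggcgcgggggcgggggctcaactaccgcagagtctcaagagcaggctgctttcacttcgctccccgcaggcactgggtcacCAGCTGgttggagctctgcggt

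The letters CANNTG were in 10 of the 16 windows listed for the 10 genes, and in 72.3% of all 32851 promoter windows. The Bcl2a1b and Bcl2 windows held none. The Bcl2a1b window begins just downstream of the CAAGTG seen in the Bcl2a1a window, because the annotated starts of the copies differ. CAGCTG stood 28 bases from the annotated start in 1 of the 2 Bcl2l11 windows, and 16.3% of all windows held it. CACCTG, read on both strands and so including CAGGTG, was in 3 member windows, of Bad and Bbc3, and in 20.2% of all windows. These matches describe letters in short windows, and nothing about binding was measured. The Bcl2a1a and Bcl2a1b windows shared 254 of 256 aligned bases (99.2%).

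Among the pro-survival members, Bcl2a1b was higher with E47ER, Bcl2 was lower, Mcl1 was nearly level and Bcl2l1 was too dim to compare. Bcl2a1b encodes A1, a short-lived pro-survival protein of blood cells that NF-kappaB is known to induce. Its intensity was 14.9 on the E47ER array and 4.37 on the bHLHER array, which is 3.42-fold higher with E47ER (log2 ratio 1.77). Bcl2a1b was the 1 member past 2-fold among the 8 measured on both arrays, where 2.31% of all measured genes passed 2-fold on the higher side and 0.813% on the lower side. Only 36 of the 5534 measured genes had a higher ratio. Both values lay well above the floor. The mouse genome holds 4 copies, Bcl2a1a, Bcl2a1b, Bcl2a1c and Bcl2a1d, all on chromosome 9, and 1 of them had a named probe, so the signal of that probe may come from several copies. A1 is also made by mature myeloid cells. Of 15 granulocyte and monocyte markers with a probe, 6 were measured on both arrays (median log2 ratio -0.23, summed intensity 45.7 against 50.6). Of these, 5 were lower with E47ER, beside 55.8% of all measured genes. Elane, Mpo, S100a8 and S100a9 did not reach the floor. Itgam, which encodes CD11b, passed it on the E47ER array alone, at 1.69 against 0.487, which bounds it at 1.77-fold higher or more. Of the 6 measured, Mmp8 was lowest, at 2.15 against 5.87 (2.73-fold lower), and Fcgr3 was highest and nearly level (28.3 and 27.4). Of 5 measured dendritic cell markers, 4 were higher, beside 44.2% of all measured genes (median 0.28, summed intensity 43.9 against 19.9). The difference in the sum came largely from Irf8 (16.4 and 2.17) and Itgax (12.6 and 3.39). Clec9a, Flt3 and Xcr1 had log2 ratios of 0.28, 0.13 and -0.0059. The part of these markers in the Bcl2a1b ratio was not tested.

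Bcl2, the founding member, protects blood and lymphoid cells, and its level moved the other way. Its intensity was 16.3 with E47ER and 28.2 with bHLHER, 1.73-fold lower (log2 ratio -0.79), short of 2-fold. Of all measured genes, 133 had a lower ratio. Among the 1845 brightest measured genes by mean over both arrays, which include Bcl2, the middle 95% of log2 ratios ran from -0.78 to 0.90, so Bcl2 lay at its lower edge. Mcl1, a short-lived protein that progenitor and lymphoid cells need, had 18.2 with E47ER and 19.4 with bHLHER (log2 ratio -0.09). That is near the median of all genes. Bcl2l1, which encodes Bcl-xL and, by splicing, the pro-death form Bcl-xS, had 0.277 and 0.0643. Both values were below the floors, so no fold is given.

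**Figure D1:**
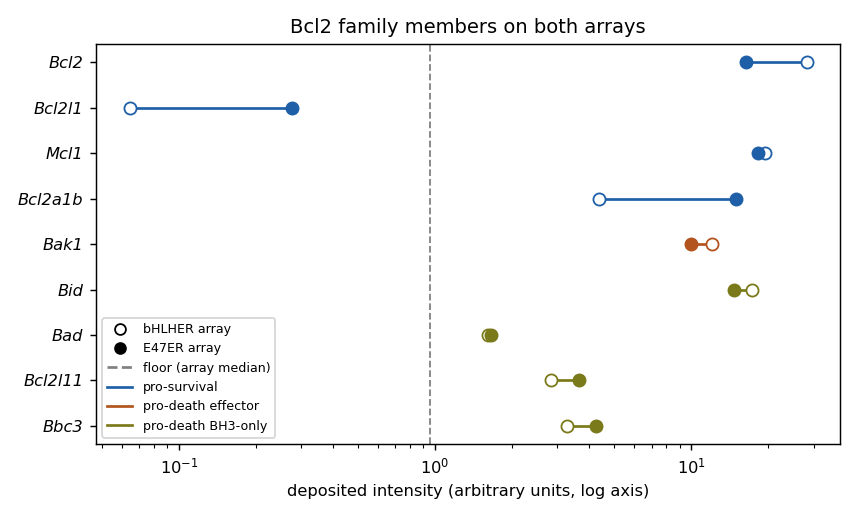
Deposited intensity (log axis, arbitrary units) of the 9 members with a named probe, on the bHLHER array (open circles) and the E47ER array (filled circles), coloured by role; the dashed line is the floor. Bcl2a1b moves from 4.37 to 14.9, Bcl2 from 28.2 down to 16.3, and Bcl2l1 lies below the floor on both arrays. There is 1 array per group, so no error bar is drawn, and levels of different genes' probes cannot be set against each other.

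The pro-death members differed less between the arrays than Bcl2a1b and Bcl2 did, but all except Bad differed more than Mcl1. The 1 effector with a probe was Bak1, which with Bax forms the pores in the outer mitochondrial membrane. Bak1 read 9.95 on the E47ER array and 12.1 on the bHLHER array, 1.22-fold lower with E47ER (log2 ratio -0.28). Bid, which caspase-8 cuts to link death receptors with mitochondria, had 14.6 and 17.3, 1.18-fold lower (log2 ratio -0.24). Bak1 and Bid were thus lower by similar small amounts.

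The other BH3-only genes leaned the opposite way or were level. Bcl2l11 encodes Bim, which binds every pro-survival protein of the family and is induced when cytokine is withdrawn. Its intensity was 3.65 with E47ER and 2.83 with bHLHER, 1.29-fold higher (log2 ratio 0.37). Bbc3 encodes Puma, a BH3-only protein known as a p53 target, and had 4.25 and 3.28, 1.30-fold higher (log2 ratio 0.37). Bcl2l11 and Bbc3 therefore had almost the same ratio, and 675 and 653 of the measured genes had a higher one. Bad, whose product growth factor signals disarm by phosphorylation, was level at 1.66 and 1.61 (log2 ratio 0.04), close above the floor.

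For scale, the only spread within these data came from 34 genes with 2 probes, whose log2 ratios differed by a median of 0.236. This spread reflects disagreement between probes of a gene on the same arrays. Effects of an array or culture that both probes share cancel in it, so it is no error of a member's ratio. Every member had just 1 probe. Bcl2a1b, Bcl2, Bcl2l11, Bbc3 and Bak1 differed between the arrays by more than this median, Bid by about as much, and Mcl1 and Bad by less.

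**Figure D2:**
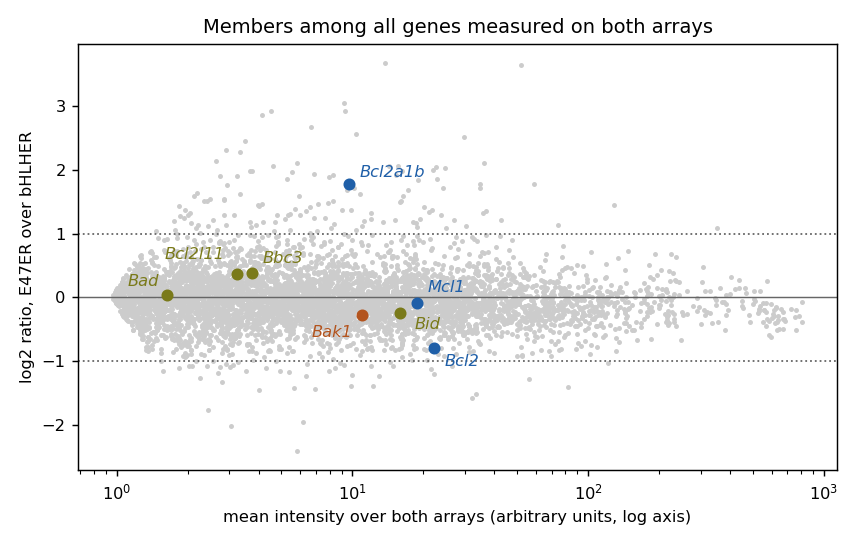
Log2 ratio of E47ER over bHLHER against mean intensity (log axis, arbitrary units) for the 5534 genes measured on both arrays (grey points), with the 8 measured members in colour by role. Dotted lines mark 2-fold; Bcl2a1b, at 1.77, is the 1 member beyond them, and Bcl2, at -0.79, lies at the lower edge of the cloud.

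Set against each other by role, the pro-survival members were spread far more widely than the pro-death members, while their medians were close. The 3 measured pro-survival members ran from -0.79 to 1.77, with 1 above 0 and 2 below and a median log2 ratio of -0.09. The 5 measured pro-death members ran from -0.28 to 0.37, with 3 above 0 and 2 below and a median of 0.04. Over all measured genes, 44.2% were above 0 and 55.8% below. The difference of the medians, pro-survival minus pro-death, was -0.13. Neither role lay wholly on 1 side of 0. This difference rests on 3 and 5 genes and turned to 0.80 when no floor was set. Bcl2l1 then entered with a log2 ratio of 2.11, from 0.277 with E47ER and 0.0643 with bHLHER, both below the array medians. With a floor at the 25th percentile, Bcl2l1 passed it on the E47ER array alone, a bound of 1.35-fold higher.

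A constant factor on either array cancels in the difference of log2 ratios of a pair of members. Scalings that vary with brightness do not cancel: the Mcl1 and Bad pair, whose difference was -0.128, had -0.076 after quantile normalization and -0.078 after loess. Relative to each pro-death member, Bcl2a1b was higher with E47ER, by 4.16-fold against Bak1, 4.04-fold against Bid, 3.33-fold against Bad, 2.65-fold against Bcl2l11 and 2.64-fold against Bbc3. Bcl2 was lower relative to every one of them. It was lower by 2.23-fold against Bcl2l11 and 2.24-fold against Bbc3, but by only 1.42-fold against Bak1 and 1.46-fold against Bid. Against Bad it was 1.78-fold lower. Mcl1 stayed within 1.38-fold of each pro-death member in either direction. Of the 15 pairs, 5 passed 2-fold upward, all with Bcl2a1b, while 2 passed it downward, both with Bcl2, and 8 lay between. The pairs share members and are not independent. Within the pro-survival members, Bcl2a1b relative to Bcl2 was 5.92-fold higher with E47ER, and relative to Mcl1 3.64-fold. Such differences show unequal change and not which of the genes in a pair changed.

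**Figure D3:**
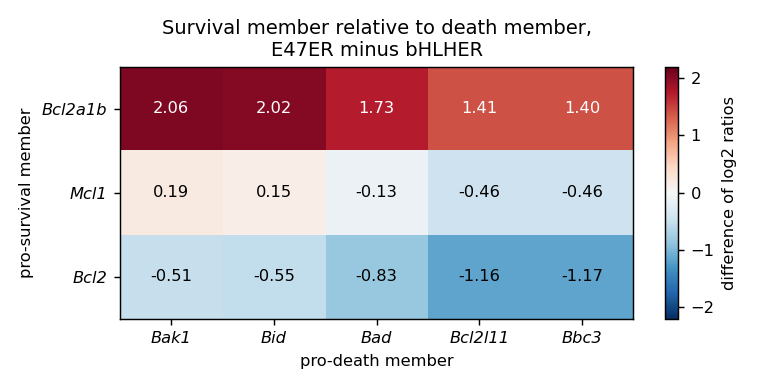
Difference of log2 ratios (E47ER over bHLHER) between each measured pro-survival member (rows) and each measured pro-death member (columns), 1 array per group; red is higher and blue lower with E47ER. The Bcl2a1b row runs from 1.40 to 2.06 and the Bcl2 row from -1.17 to -0.51, with Mcl1 between.

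The direction of the weaker members depended on what the arrays were centred on. Centring on the pan-leukocyte genes lowers every log2 ratio by 0.46. Bcl2a1b was then 1.32 (2.49-fold higher), still past 2-fold, and Bcl2 was -1.25, now past 2-fold on the lower side. Bcl2l11, Bbc3 and Bad turned to -0.089, -0.082 and -0.42, so all members but Bcl2a1b were then below 0. The split of all genes past 2-fold went with it, from 128 higher and 45 lower to 60 and 422. Under the other scalings, quantile normalization, loess and the 75th percentile, each measured member kept its direction. Bcl2a1b, with values from 1.32 to 1.82, was higher by at least 2-fold in every setting in which it was measured on both arrays. Among these settings, changed floors and the mean over probes could not alter the ratio of a gene with 1 probe. With a floor at the 75th percentile Bcl2a1b passed the floor on the E47ER array alone, and its bound was at least 2.61-fold higher.

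**Figure D4:**
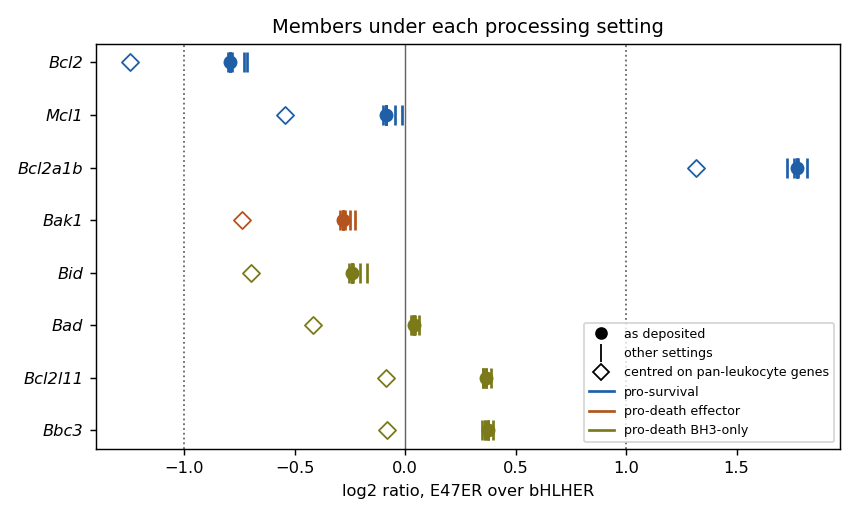
Log2 ratio of E47ER over bHLHER for the 8 measured members as deposited (filled circles), under the other settings (vertical ticks) and centred on pan-leukocyte genes (open diamonds); dotted lines mark 2-fold. The ticks lie close to the circles, where those for changed floors and the mean over probes could not move. The centring moves every member by 0.46 to the left, which takes Bcl2 past the lower line and Bad, Bcl2l11 and Bbc3 across 0.

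Of the other genes of the family, 10 of 16 had a named probe, 5 were measured on both arrays and none passed 2-fold. Their median log2 ratio was 0.01. Bcl2l2, which encodes the pro-survival protein Bcl-w, had 5.52 with E47ER and 9.08 with bHLHER, 1.65-fold lower (log2 ratio -0.72). This ratio was close to that of Bcl2. Pmaip1 encodes Noxa, a BH3-only protein that binds Mcl1 and A1, and had 47.1 and 35.4, 1.33-fold higher (log2 ratio 0.41), close to Bcl2l11 and Bbc3. Centred on pan-leukocyte genes, by the same 0.46, Pmaip1 too would lie below 0, and Bcl2l2 would pass 2-fold on the lower side. Bnip3 (53.8 and 53.5), Bnip3l (24.2 and 23.0) and Bcl2l13 (5.93 and 5.97), which act in mitophagy, were level. Bcl2l10, Bok, Bmf, Bik and Hrk did not reach the floor on either array, the highest of these values being 0.633.

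Downstream of the family, the measured apoptosome and mitochondrial factors lay below 0, though Diablo lay near the median of all genes. All 5 measured genes of this list were lower with E47ER, none by 2-fold, beside 55.8% lower of all measured genes. Their median log2 ratio was -0.39, against -0.05 for all genes, and -0.85 when centred on pan-leukocyte genes. Lowered by that 0.46, Htra2 and Cycs would pass 2-fold. Htra2, a mitochondrial protease released in apoptosis, was lowest at 14.6 against 25.7 (log2 ratio -0.82). Cycs, which encodes cytochrome c, had 124 and 198 (log2 ratio -0.67). Diablo, whose product neutralises inhibitors of apoptosis, was nearly level (9.44 and 9.68) and highest in the list at -0.04. Apaf1, the scaffold that cytochrome c engages, was below the floor on both arrays (0.330 and 0.272). Endog was above the floor with bHLHER only (0.928 and 1.07), a bound of 1.12-fold lower with E47ER.

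No caspase or caspase inhibitor passed 2-fold, and both lists held genes on either side of 0. Of 6 measured caspase and substrate genes, 4 were above 0 (median 0.14), beside 44.2% of all measured genes. Casp1, an inflammatory caspase, was highest at 1.53 against 1.06, both near the floor (log2 ratio 0.53), and Dffb, the apoptotic nuclease, was lowest (-0.14). Of 7 measured inhibitors of apoptosis, 6 were above 0 (median 0.17), beside the same 44.2%. Birc3, which encodes cIAP2, was highest at 6.62 against 5.09 (log2 ratio 0.38), and Birc6 was lowest at -0.32. Both medians fell below 0 with the centring, at -0.32 and -0.29.

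In the death receptor pathway, 1 of 10 measured genes passed 2-fold on each side and 8 lay between. Of all measured genes, 2.31% passed it on the higher side and 0.813% on the lower side. The median of the list was 0.18, and -0.28 with the centring. Traf1, an adaptor of tumour necrosis factor receptors, had 3.71 with E47ER and 1.27 with bHLHER, the latter near the floor, and was 2.91-fold higher. Tnf, the ligand, was 2.28-fold lower at 1.63 against 3.73. Fas and Fasl did not reach the floor on either array.

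As A1 is known to be induced by NF-kappaB, the factors and inhibitors of that pathway were described as well. The part of NF-kappaB in the Bcl2a1b ratio was not tested. None of the list's 7 measured genes passed 2-fold, 5 were above 0, beside 44.2% of all measured genes, and the median was 0.06. The centring turned it to -0.40, and raising the floor to the 75th percentile gave 0.47. Nfkbia, an inhibitor of NF-kappaB, was highest at 38.2 against 24.0 (log2 ratio 0.67), and Nfkb2 was lowest at 2.14 against 3.06 (-0.52). Rela (1.81 and 1.71) and Tnfaip3 (1.84 and 1.86) were level, and Rel and Relb did not reach the floor.

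Puma and Noxa are known p53 targets, and the genes of the p53 list went both ways. Of its 12 measured genes, 8 were below 0, beside 55.8% of all measured genes, and the median was -0.26. None was lower by 2-fold and 1 was higher by over 2-fold. Of all measured genes, 0.813% were lower and 2.31% higher by that size. Btg2 passed the floor on the E47ER array alone (1.09 against 0.512), a bound of 1.14-fold higher. The gene past 2-fold was Cdkn1a, the cell cycle inhibitor p21, at 59.5 against 25.6. Mdm2, the ligase that p53 induces and that degrades it, was lowest at 1.61 against 2.73 (log2 ratio -0.76), and Ccng1 had 14.1 and 22.3 (-0.66). The list holds Pmaip1 (0.41), named above, and its median was 0.41 with a floor at the 75th percentile, where fewer of its genes remained. Centred on pan-leukocyte genes, the list's median was -0.72. Lowered by that 0.46, Cdkn1a would fall short of 2-fold, and Mdm2, Ccng1 and Sesn2 would pass it on the lower side.

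**Figure D5:**
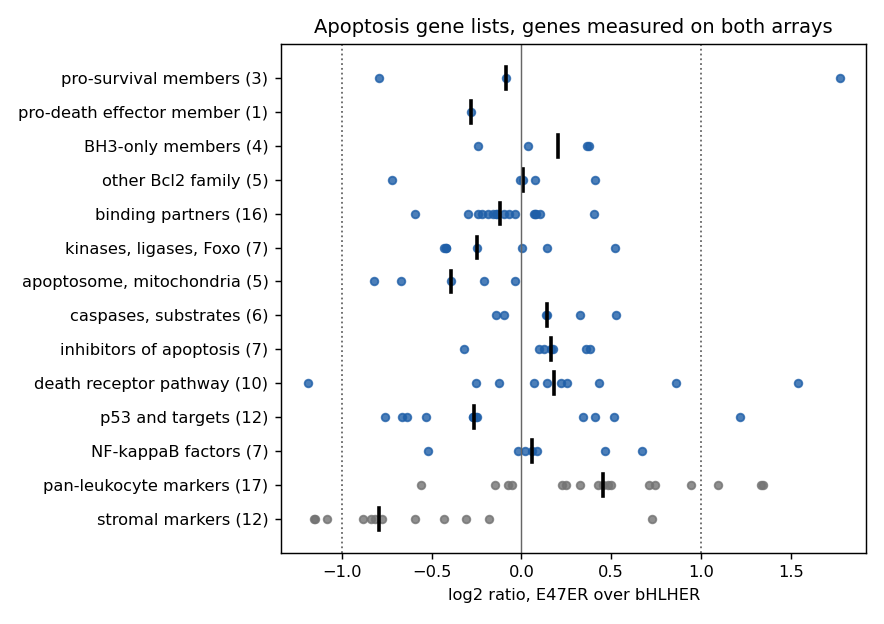
Log2 ratio of E47ER over bHLHER for each gene measured on both arrays in the members' roles, in the apoptosis lists (blue) and in the pan-leukocyte and stromal markers (grey), with each list's median as a black bar and its number of measured genes in brackets; dotted lines mark 2-fold. The pro-survival members span the widest range of the 4 Bcl2 family groups at the top, all 5 apoptosome and mitochondrial genes lie below 0, and the marker lists shift in opposite directions.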

How the data were processed

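RNA of E47ER and bHLHER cells was hybridised to CodeLink mouse 20k arrays with Cy5 label, per the labels, 1 array per group. The deposited table holds a linear intensity for 20289 probes on each array. No source used here states its scaling or background removal, but the medians differ by 0.418%, and the values were used as deposited. Values were missing for 119 probes (E47ER) and 125 (bHLHER), and 45 and 84 were not above 0. The number of arrays limits the precision. The platform annotation named 10349 probes with 1 gene each, none with several, and left 9940 unnamed here. All 10349 gene identifiers matched RefSeq's table for GRCm38.p6. A gene with several probes took the one with the highest mean.

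E47ER was divided by bHLHER on the log2 scale (Python 3.11.15, pandas 2.3.3) for genes above each array's median on both arrays, and a gene above it on 1 array only received a bound against the other's floor. No test was possible. Loess used limma 3.58.1. Named genes are all members, the other family genes, and in each further list the up to 4 genes a side past 2-fold, or else its highest and lowest; others were chosen after their values were seen. Promoter windows were aligned locally. Members and lists were chosen with earlier results of these data known. Alternatives were other scalings, a centring, floors, a pseudocount, the mean over probes and a larger size threshold. 1 listed symbol was absent from RefSeq's table and was dropped.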

Additional observations from a re-analysis of the deposited data

How the results depend on the processing

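No paired analysis was possible because there is a single array per group, which also leaves no replicate to omit. Centring on pan-leukocyte genes turned Bad to -0.42, Bcl2l11 to -0.089 and Bbc3 to -0.082, took Bcl2 past 2-fold at -1.25, and changed the counts of genes at least 2-fold higher and lower from 128 and 45 to 60 and 422. Calls on the higher side thus went from 74.0% to 12.4% of all calls. Lowering the floor to the 25th percentile gave 204 and 77, raising it to the 75th gave 43 and 16, omitting it gave 545 and 348, and a log2 threshold of 1.5 gave 56 and 6. With no floor the pro-survival minus pro-death difference was 0.80 in place of -0.13, through Bcl2l1. Quantile normalization, loess, 75th percentile scaling and the pseudocount changed no member's direction or its side of 2-fold. The 75th percentile scaling was a constant factor of only 1.009. The mean over probes could not change a member's ratio, because every member had 1 probe. At the 75th percentile floor, Bad, Bcl2l11 and Bbc3 were below it on both arrays. Medians of the further lists moved by more than the 0.236 between probes of a gene under the centring, and under a changed floor for the kinase, p53 and NF-kappaB lists; the cause was not tested.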

Other observations

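Genes whose products bind Bcl2 family proteins differed little between the arrays. Of 16 measured binding partners none passed 2-fold, 5 were above 0, beside 44.2% of all measured genes, and the median log2 ratio was -0.12. Centred on pan-leukocyte genes, the median was -0.57. Tmbim6, which encodes Bax inhibitor 1, was highest at 73.4 with E47ER against 55.4 with bHLHER (log2 ratio 0.40). Dynll2, a dynein light chain that is known to tether the BH3-only protein Bmf, was lowest at 29.3 against 44.2 (-0.59). With the centring it would pass 2-fold on the lower side. The channel genes Vdac1, Vdac2 and Vdac3, whose products sit in the outer mitochondrial membrane, had log2 ratios of -0.19, -0.22 and -0.30.

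Of 7 measured kinases, ligases and other regulators that act on the family, none passed 2-fold and the median was -0.25. This median was 0.0050 once the floor was lowered to the 25th percentile or omitted, and -0.71 with the centring. Akt2, a kinase of the growth factor pathway, was highest at 1.41 against 0.985, near the floor (log2 ratio 0.52), and Pim3 was lowest at 10.9 against 14.6 (-0.43). Foxo1, of a factor family known to induce Bcl2l11, and Pim1 were above the floor with E47ER only, at least 1.55-fold and 1.32-fold higher. Mapk8, which encodes the kinase JNK1, was above it with bHLHER only, at least 1.47-fold lower with E47ER.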
